A study of Mus musculus with 15 samples.

Results

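The 4 libraries of untreated hematopoietic stem cells (HSCs) were described by the level of each gene, as 4 of the 15 libraries of the study. They were taken by their title in the sample labels, which give wild-type C57BL/6 mice aged 8 to 10 weeks, bone marrow as the tissue and HSC as the cell type, with no treatment. Each library was made from 100 sorted cells, and the labels name no marker or gate of the sort. The other libraries, of HSCs after 5-FU and of HSCs cultured with or without nifedipine, were not compared. The labels call these cells untreated and do not say whether they were in cycle. They also do not say whether the 4 libraries came from separate animals, so the spreads given below are those between these libraries and may be technical.

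HSCs sit in the bone marrow, where they self-renew and supply every kind of blood cell. Most of them are out of the cell cycle at a given time, held there by niche signals such as stem cell factor, which acts through the receptor Kit. A shared set of transcription factors (Runx1, Gata2, Tal1, Lmo2, Erg, Fli1, Meis1 and others) keeps the stem cell program, while factors such as Gata1, Pax5 and Cebpa drive single lineages.

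Levels are given as the RPKM values of the authors. They scale the exon reads of a gene by its exon length and by a read total of the library. The scaling takes out exon length when genes are compared with each other. Other differences between genes in how well their RNA was read were not tested, so orders of genes are those of these values. Exon reads per library ranged from 6171730 in library 2 to 16685285 in library 1. They made up 24.96% to 26.3% of the read total behind the RPKM values, and the values of 1 library summed to between 75611 and 80285, highest in library 3 and lowest in library 4. An RPKM of 1 was worth 12.5 to 13.2 TPM, the scale on which every library has the same sum. For a gene with 2 kb of exons it stood for 48.7 to 130.5 reads.

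Libraries stood apart in genes of 4 kinds. Libraries 2 and 4 held more globin transcripts than the others, library 2 more stromal transcripts, library 1 more transcripts of endothelial and macrophage genes, and library 3 had the highest levels of mitosis genes. These genes are described at the end with their values, and the levels of stem cell genes are given for each library. In RNA from pooled cells, fewer cells of a type and less RNA per cell cannot be told apart.

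A mean of at least 1 RPKM was reached by 9562 genes, and 9491 of the 21359 protein-coding genes (44.4%) were among them. The counts of list members at 1 RPKM given below are to be read against this share of 44.4%. The count for single libraries lay between 9466 and 9603, and 9022 genes reached 1 RPKM in all 4. At least 10 RPKM was reached by 1439 genes and at least 100 RPKM by 81. The 100 highest genes of a library held 24.5% ± 0.547 (SD, n = 4) of its summed RPKM. Of these genes 89 were shared by all 4 libraries.

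**Figure D1:**
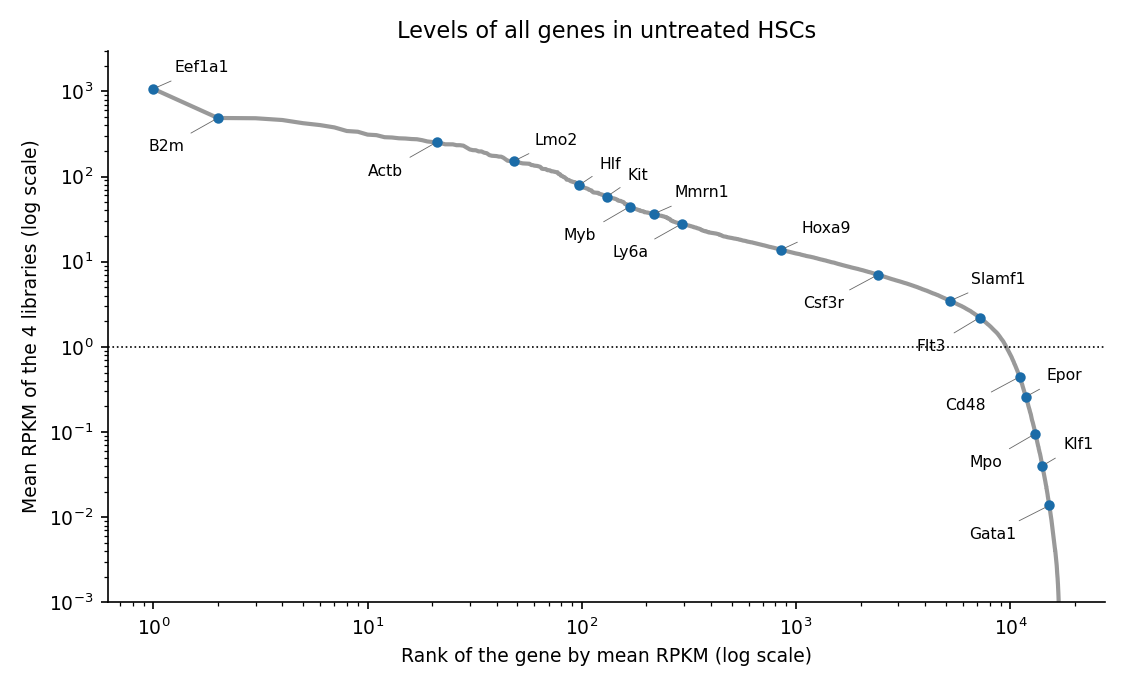
Mean RPKM of the 4 untreated HSC libraries against the rank of the gene, both on log scales, with the threshold of 1 RPKM dotted. Eef1a1 stood first, regulators and receptors such as Lmo2, Hlf and Kit lay between rank 48 and rank 131, and Mpo, Klf1 and Gata1 lay below 0.1 RPKM.

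The upper end of the list belonged to the translation machinery. Eef1a1, which carries aminoacyl-tRNA to the ribosome, was the highest gene at 1060.1, 1076, 1079 and 1071 RPKM in libraries 1 to 4. B2m, the light chain of MHC class I, followed at 487 ± 30.2 RPKM (SD, n = 4). All 79 ribosomal protein genes were above 1 RPKM, with a median of 124 RPKM. They filled 57 of the first 100 places and held 15.4% of the summed RPKM. Rps3a1 (474 to 499.8 RPKM), Rps12 (445 to 478 RPKM) and Rpl12 (352 to 395 RPKM) were the highest of them. Tpt1, a calcium-binding growth protein, reached 402 ± 23.4 RPKM and the elongation factor Eef2 174 ± 7.12 RPKM (SD, n = 4). Lars2, the mitochondrial leucyl-tRNA synthetase, stood at rank 5 with 361 to 463 RPKM. Whether all reads counted for Lars2 came from its own messenger RNA was not tested, so this rank is uncertain. Actb, the cytoplasmic beta actin, stood at 253 ± 20.03 RPKM, and the chaperones Hsp90ab1 and Hspa8 stood at 239 ± 13.8 and 204 ± 9.31 RPKM (SD, n = 4). Many of these genes have near-identical processed copies in the genome, so reads may have been split and their levels are uncertain, as for Rps6 at 16.3 to 21.2 RPKM.

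The transcription factors of the stem cell program were nearly all present. For those at 10 RPKM or more, the spread between libraries was near that of all genes at that level. Of 26 listed factors, 25 had a mean of at least 1 RPKM and 14 had at least 10 RPKM. Their summed level was 536, 509, 527 and 520.1 RPKM in libraries 1 to 4, a coefficient of variation (CV, SD over mean) of 2.21%. Lmo2, the adaptor that joins Tal1 to GATA factors, was the highest at 149.9, 148, 152 and 155 RPKM, rank 48 of all genes. Hlf, a PAR bZIP factor that marks HSCs, came next at 85.5, 79.7, 78.7 and 72.8 RPKM. Myb, which is required for definitive hematopoiesis, had 48.02, 43.9, 46.4 and 38.8 RPKM and was lowest in library 4. In none of the 14 factors at 10 RPKM was a library 2 times another, against 15 of all 1439 genes at that level (1.04%). The median CV of these factors was 5.98%, against 6.79% for all those genes.

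Below them, Etv6 (28.9 to 32.4 RPKM), Mllt3 (21.9 to 27.5 RPKM) and Meis1 (21.9 to 23.7 RPKM) lay above 20 RPKM in every library. Mecom, the Evi1 locus needed for HSC maintenance, had 19.3, 15.8, 20.3 and 19.7 RPKM, lowest in library 2. Gata2 (16.1 ± 1.33 RPKM) and Erg (16.1 ± 0.458 RPKM; SD, n = 4) did not differ beyond their spread. Fli1, an ETS factor like Erg, had 14.3, 13.999, 15.04 and 14.7 RPKM and was below Erg in every library. Runx1, the core-binding factor alpha subunit of blood, had 11.9, 15.1, 12.8 and 11.8 RPKM, highest in library 2. Its partner Cbfb had 13.8 ± 2.03 RPKM (SD, n = 4), a level that overlapped that of Runx1.

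**Figure D2:**
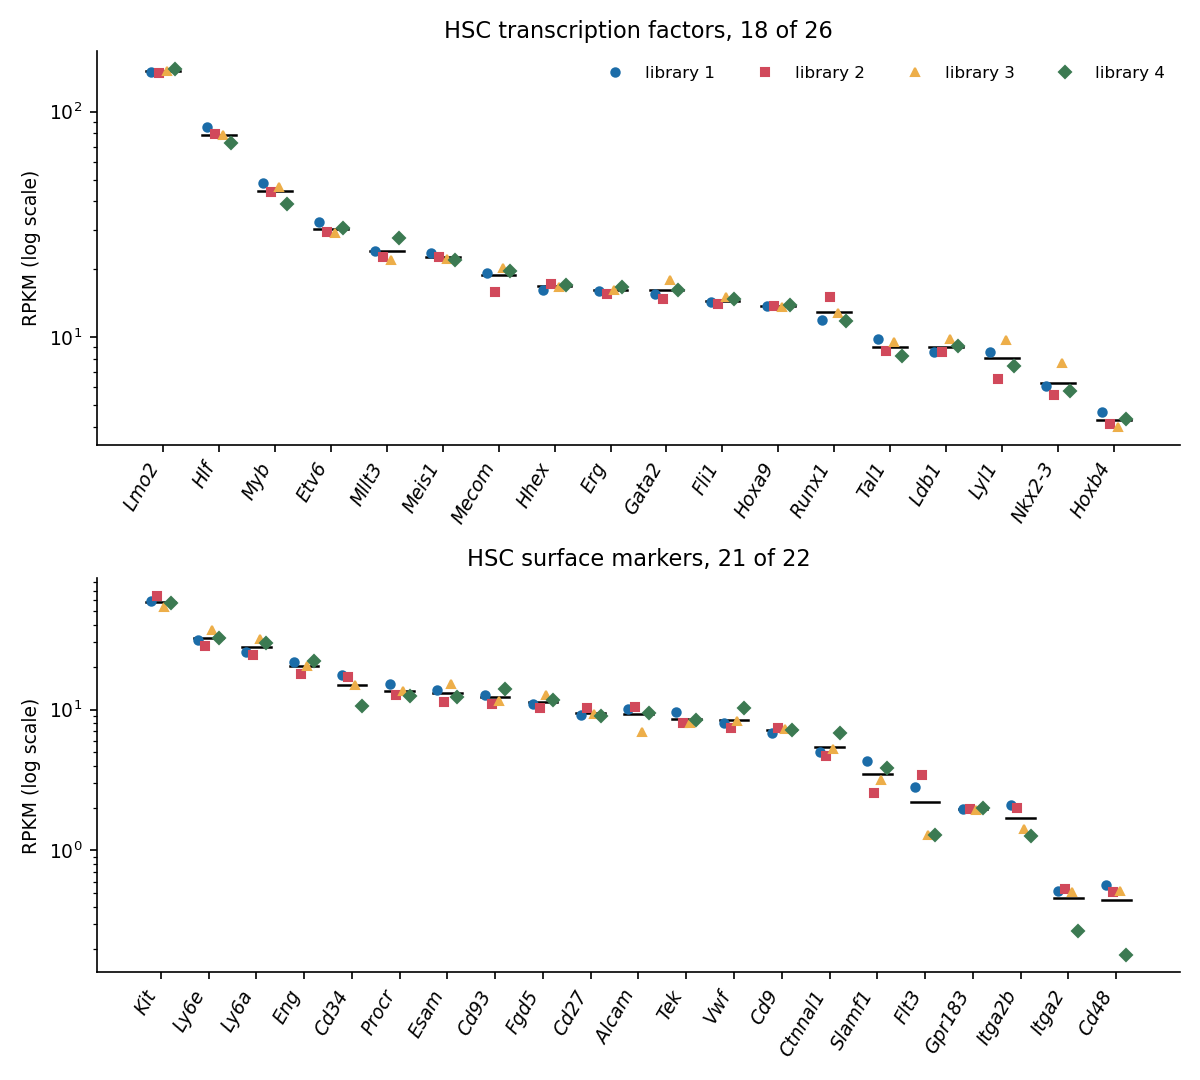
RPKM on a log scale of HSC transcription factors (upper panel, 18 of 26) and of HSC surface markers (lower panel), with 1 symbol for each library and a line at the mean. The 4 libraries of Lmo2 lay close together at 148 to 155 RPKM, whereas Flt3 and Cd48 spread more widely at the lower end.

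Factors that drive single lineages were low. Of 24 listed, 6 had a mean of at least 1 RPKM, 9 were below 0.1 RPKM and Tbx21 had no read. Nfe2, a megakaryocytic and erythroid bZIP factor, was the highest at 17.6 ± 1.42 RPKM, and Bcl11a, a zinc finger factor of lymphoid cells and globin switching, had 11.6 ± 0.483 RPKM (SD, n = 4). Spi1 (PU.1, of myeloid and B cells) had 3.21, 3.38, 3.81 and 3.05 RPKM and Gata3, of T cells, had 1.65, 2.24, 1.92 and 2.00 RPKM. Gata1, of red cells and megakaryocytes, lay at 0 to 0.0332 RPKM and Klf1, the erythroid Krüppel-like factor, at 0 to 0.107 RPKM. Pax5, of B cells, had reads in 1 library. Cebpa, of granulocytes and monocytes, differed between libraries at 0.349, 1.56, 0.0735 and 0.185 RPKM, and Ebf1, of B cells and marrow stroma, at 0.0920, 0.856, 0.00570 and 0.182 RPKM. Both were highest in library 2, the library with the stromal transcripts, and lowest in library 3, and their relation to those transcripts was not tested.

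HOX genes were read mainly from the A and B clusters, and the highest was Hoxa9. Of 39, 11 reached 1 RPKM, all of them Hoxa or Hoxb, and 9 had no read. Hoxa9, a factor of stem and progenitor cells, had 13.7, 13.7, 13.7 and 13.9 RPKM, a CV of 0.754%. Hoxa5 had 6.40, 5.69, 7.87 and 8.91 RPKM, Hoxb4 4.65, 4.12, 4.00 and 4.32 RPKM and Hoxa3 4.32, 3.98, 3.24 and 4.55 RPKM. Hoxb4 and Hoxa3 did not differ beyond their spread. Hoxa10 (1.97 to 2.87 RPKM) and Hoxa6 (1.88 to 2.13 RPKM) followed.

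Among the other families, the ETS factors had 17 of 26 members at 1 RPKM, with Elk4 (13.6 ± 0.655 RPKM) and Elf1 (12.95 ± 0.921 RPKM; SD, n = 4) after Etv6, Erg and Fli1. All 7 STAT genes passed. The cytokine-responsive Stat3 (11.1 to 12.5 RPKM) and Stat4 (10.8 to 12.3 RPKM) overlapped in level, and Stat5a (6.27 to 7.76 RPKM), which acts after several cytokine receptors, was lower. In the IRF family 6 of 9 passed, and Irf1 had 9.46, 10.1, 11.5 and 18.3 RPKM, highest in library 4. Gata2 was the GATA factor with the highest level, above Gata3, and Gata6 had no read. Of the MYC network, Mycn had 21.3, 21.96, 22.03 and 22.03 RPKM and Myc 9.01, 9.12, 9.37 and 6.09 RPKM, so that Mycn was the higher paralog in every library. Foxo3, a forkhead factor tied to HSC quiescence, had 17.3 ± 0.414 RPKM (SD, n = 4). Of 48 nuclear receptors 19 (39.6%) reached 1 RPKM, near the 44.4% of all protein-coding genes. Nr4a1 led them at 18.1, 16.7, 33.6 and 37.7 RPKM, while Nr3c1, the glucocorticoid receptor, had 7.16 to 7.85 RPKM. Of the E proteins, Tcf12 had 10.7 to 12.3 RPKM and Tcf3 1.84 to 2.65 RPKM. Their inhibitor Id3 had 1.64, 3.67, 0 and 0.531 RPKM, with no read in library 3 and a mean of 1.46 RPKM over all 4 but 0.724 RPKM without library 2.

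Of 45 cytokine receptor genes 31 had at least 1 RPKM. Kit, the receptor for stem cell factor, had 58.9, 63.7, 53.4 and 57.4 RPKM, with its highest value in library 2 and its lowest in library 3. Il2rg, the common gamma chain, had 20.4 ± 1.80 RPKM and Ifngr1, the ligand-binding interferon gamma receptor, 16.2 ± 1.15 RPKM (SD, n = 4). Il6st (gp130), the shared signal chain of the interleukin 6 family, had 19.4, 7.55, 7.28 and 10.4 RPKM and was highest in library 1. Csf3r, the receptor for G-CSF, had 7.28, 7.06, 7.27 and 6.56 RPKM. Flt3, which marks multipotent progenitors more than HSCs, had 2.84, 3.41, 1.29 and 1.29 RPKM, with libraries 1 and 2 above libraries 3 and 4. Csf1r (0.166 to 0.659 RPKM) and Epor (0.200 to 0.318 RPKM), the macrophage and erythropoietin receptors, were below 1 RPKM in every library. Il7r, the lymphoid interleukin 7 receptor, had no read among the 6171730 to 16685285 exon reads of a library, and a count of 0 allows up to 3 reads. Such limits cover counting error only.

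The listed surface markers of HSCs include genes taken as present and others, Cd34, Cd48 and Flt3, taken as low or absent. Of the 22 genes 20 had 1 RPKM or more, and the sum of the list was 335, 324, 328 and 329.8 RPKM. Ly6a (Sca-1) had 25.8, 24.4, 31.6 and 29.5 RPKM and Procr (EPCR) 15.2, 12.8, 13.6 and 12.5 RPKM. Slamf1 (CD150) had 4.32, 2.57, 3.19 and 3.86 RPKM. Cd34, though taken as low in HSCs, had 17.7, 17.1, 14.9 and 10.6 RPKM, lowest in library 4. It was above Procr in libraries 1, 2 and 3 and below it in library 4. Cd48, which is used to exclude progenitors, had 0.572, 0.511, 0.517 and 0.183 RPKM and was also lowest in library 4. Itga2b (CD41) lay at 1.27 to 2.10 RPKM. Eng (endoglin) had 20.5 ± 1.89 RPKM, Esam 13.1 ± 1.77 RPKM and the angiopoietin receptor Tek 8.50 ± 0.711 RPKM (SD, n = 4).

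Among other receptors, the adhesion G protein-coupled receptor Adgrg1 (GPR56) had the highest level, 95.4, 88.1, 92.9 and 90.5 RPKM, and Adgrl4 followed at 66.1, 63.5, 56.5 and 60.2 RPKM. Cxcr4, which holds HSCs in the marrow through its ligand Cxcl12, had 16.5, 21.96, 14.2 and 19.6 RPKM. Gpr171 had 16.03 to 17.8 RPKM and the purinergic receptor P2ry14 7.11 to 8.14 RPKM. Of 49 receptor tyrosine kinases 16 reached 1 RPKM. Tie1 (17.4 ± 1.67 RPKM) and Igf1r, the insulin-like growth factor 1 receptor (10.4 ± 0.287 RPKM; SD, n = 4), came after Kit. Notch2 (12.9 to 14.02 RPKM) and Bmpr2 (11.8 to 14.4 RPKM), a type II BMP receptor, led their list with Eng, and Tgfbr2 had 5.49 to 6.24 RPKM. Of the adhesion genes, Cd47, the signal that inhibits uptake by macrophages, had 37.9 to 45.2 RPKM and Itga4, the alpha 4 integrin chain, 14.2 to 15.6 RPKM. Toll-like and NOD receptors were low: 4 of 16 reached 1 RPKM, and Tlr4, the receptor for lipopolysaccharide, was the highest at 2.77, 3.06, 2.41 and 3.73 RPKM.

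Enzymes of central metabolism were read at moderate, even levels. In glycolysis 20 of 27 genes had 1 RPKM, led by Ldha, the muscle-type lactate dehydrogenase subunit, at 53.5, 52.5, 63.4 and 48.4 RPKM. Pkm, the pyruvate kinase of most tissues, had 34.6 to 41.2 RPKM and the heart-type subunit Ldhb 15.9 to 21.4 RPKM, so Ldha was above Ldhb in every library. In the tricarboxylic acid cycle 24 of 25 genes passed, with Sdha at 28.7 ± 1.22 and Mdh1 at 26.9 ± 1.21 RPKM (SD, n = 4). Fatty acid oxidation had 25 of 27 genes at a mean of 1 RPKM and none at a mean of 10 RPKM, the highest mean being 9.99 RPKM. Cpt1a, which couples fatty acids to carnitine for transport into mitochondria, was the highest at 10.5, 10.6, 9.80 and 9.11 RPKM. All 8 genes of the pentose phosphate pathway lay between 1 and 10 RPKM, with Tkt at 7.02 to 9.28 RPKM and G6pdx at 3.84 to 4.86 RPKM. The summed level of each of these 4 pathways was highest in library 3 and lowest in library 4, with CVs of 8.16%, 6.36%, 4.98% and 8.19% in the order given. Library 3 also had the highest and library 4 the lowest sum over all genes.

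Of 29 genes that act against reactive oxygen 25 reached 1 RPKM. Sod1, the cytosolic superoxide dismutase, had 77.2, 81.2, 83.1 and 75.2 RPKM, rank 96. Prdx1 (32.7 ± 2.03 RPKM), Gpx1 (31.8 ± 3.73 RPKM) and Cat (19.3 ± 1.51 RPKM; SD, n = 4), which remove peroxides, were lower than Sod1 in every library. Among glutathione S-transferases Gstm1 led with 24.1, 24.6, 25.5 and 27.2 RPKM. Of 20 aldehyde dehydrogenases 10 (50%) reached 1 RPKM, near the 44.4% of all protein-coding genes. Aldh2 (7.29 to 8.40 RPKM) and Aldh1a1 (6.37 to 8.29 RPKM), the form often cited for stem cell sorting by enzyme activity, led and overlapped in level. Car2, carbonic anhydrase 2, was high in every library at 89.5, 83.1, 88.7 and 89.8 RPKM. Nucleotide synthesis had all 29 genes at 1 RPKM, with the purine enzymes Paics at 24.6 to 33.5 and Hprt at 18.8 to 24.98 RPKM.

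Chromatin enzymes were nearly all present. The 28 histone methyltransferases and demethylases all reached 1 RPKM, led by Kmt2a (MLL1), which maintains HOX expression, at 19.3, 18.7, 20.1 and 18.8 RPKM. Polycomb genes had 22 of 24 members at 1 RPKM. Rnf2 (RING1B) had 10.1 to 10.7 RPKM and Suz12 9.02 to 10.4 RPKM. The maintenance methyltransferase Dnmt1 had 9.82, 10.1, 13.6 and 7.35 RPKM and its partner Uhrf1 8.21, 6.76, 9.00 and 3.43 RPKM, both highest in library 3 and lowest in library 4, as were most replication genes. Dnmt3a (5.36 to 6.48 RPKM) was above Dnmt3b (3.32 to 4.38 RPKM) in every library. Tet1 (4.97 ± 0.388 RPKM) and Tet2 (4.55 ± 0.170 RPKM; SD, n = 4), which oxidize methylcytosine, overlapped. Among signalling kinases Mapk14 (p38 alpha) had 23.6 to 27.6 RPKM, Jak1 24.8 to 25.8 RPKM and Akt1 9.86 to 13.5 RPKM.

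Genes of mature cells differed by lineage, and 44.4% of all protein-coding genes reached 1 RPKM for comparison. Of 20 megakaryocyte and platelet genes 10 (50%) reached 1 RPKM, near that share. Among them, Mmrn1, a platelet protein, had 36.97, 32.2, 34.5 and 41.7 RPKM. Vwf, the von Willebrand factor, had 7.99, 7.44, 8.28 and 10.3 RPKM and Pf4, platelet factor 4, 3.21, 3.85, 5.14 and 6.32 RPKM. Gp1bb, a platelet receptor chain, lay at 0.00837 to 0.0789 RPKM. Of 19 granulocyte genes 2 (10.5%) passed, Csf3r and the granule protease Prtn3 (3.72, 2.96, 2.41 and 3.29 RPKM). Mpo, the myeloperoxidase of granules, had 0.00685 to 0.283 RPKM and Elane, the neutrophil elastase, 0 to 0.0894 RPKM. Lyz2, the myeloid lysozyme, stood higher at 38.7, 34.2, 36.6 and 35.99 RPKM, even in all libraries.

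Lymphoid markers were mostly at or near 0. Of 20 B cell genes 2 passed: Cd79b, a B cell receptor chain, at 3.06, 2.64, 4.15 and 3.44 RPKM and the adaptor Bank1 at 2.31, 0.925, 2.16 and 3.04 RPKM. Cd79a, the partner of Cd79b, lay at 0 to 0.0657 RPKM. Of 20 T cell genes, the adaptor Lat (6.93, 5.55, 6.13 and 5.46 RPKM) and the kinase Lck (1.34, 0.763, 1.38 and 1.34 RPKM) passed. Cd3e, a chain of the T cell receptor complex, had no read in any library. Of 15 natural killer and innate lymphoid genes 2 passed, Nkg7 at 3.36, 2.33, 2.13 and 0.708 RPKM and Klrb1c at 0.948 to 1.30 RPKM, and Ncr1 had no read. None of 16 mast cell, basophil and eosinophil genes reached a mean of 1 RPKM. Cpa3, the mast cell carboxypeptidase, had 0.111 to 0.165 RPKM, and Mcpt8 and Prg2 had no read. Of 15 dendritic cell genes 7 (46.7%) passed, near the 44.4% of all protein-coding genes. Their defining markers Itgax, Siglech and Xcr1 lay at or below 0.0627 RPKM. The MHC class II chaperone Cd74 had 9.20, 17.4, 20.02 and 20.97 RPKM and H2-Aa 4.76, 11.8, 6.39 and 13.7 RPKM, lowest in library 1.

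Of 10 genes of CDK inhibitors and the retinoblastoma family, the brakes of the cell cycle, 6 reached a mean of 1 RPKM, and 2 of the other 4, Cdkn2a and Cdkn2b (named after their values were seen), had no read in any library. Cdkn1b (p27) had 6.51, 6.68, 5.32 and 6.54 RPKM and Cdkn1c (p57), an imprinted CDK inhibitor of quiescent HSCs, 4.80, 5.20, 5.99 and 5.82 RPKM. Cdkn1a (p21), the p53 target, had 0.316, 0.384, 1.16 and 1.70 RPKM, with libraries 3 and 4 above libraries 1 and 2. Rbl2 (p130), the pocket protein of quiescent cells, had 12.7 ± 0.533 RPKM, above Rb1 (5.47 ± 0.421 RPKM; SD, n = 4) in every library. Among G1 genes Ccnd2, a D-type cyclin, had 26.01, 26.8, 26.9 and 24.8 RPKM, Cdk4 20.3, 22.6, 26.5 and 19.8 RPKM and Cdk6 12.2, 10.5, 10.6 and 6.38 RPKM, the last being lowest in library 4. The other imprinted genes at 1 RPKM included the adaptor Grb10 (9.34 to 10.6 RPKM) and the growth suppressor Ndn (6.34 to 8.19 RPKM). The Y-linked helicase Ddx3y had 9.47, 8.69, 9.12 and 9.79 RPKM.

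The spread between libraries was small for genes with many reads and larger at low levels. Among genes at 10 RPKM or more the median CV was 6.79%, and 6.39% after removing the part that counting error alone gives. The median CV was 11.6% at 1 to 5 RPKM, 7.92% at 5 to 10 RPKM and 4.20% at 100 RPKM or more. Counting error here is that of reads, which without molecular identifiers are not independent molecules. Between pairs of libraries, Pearson's r of log2(RPKM + 0.1) over the 9562 genes at 1 RPKM lay between 0.929 and 0.971, a description across genes that are not independent. The lowest value was that of libraries 2 and 3.

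**Figure D3:**
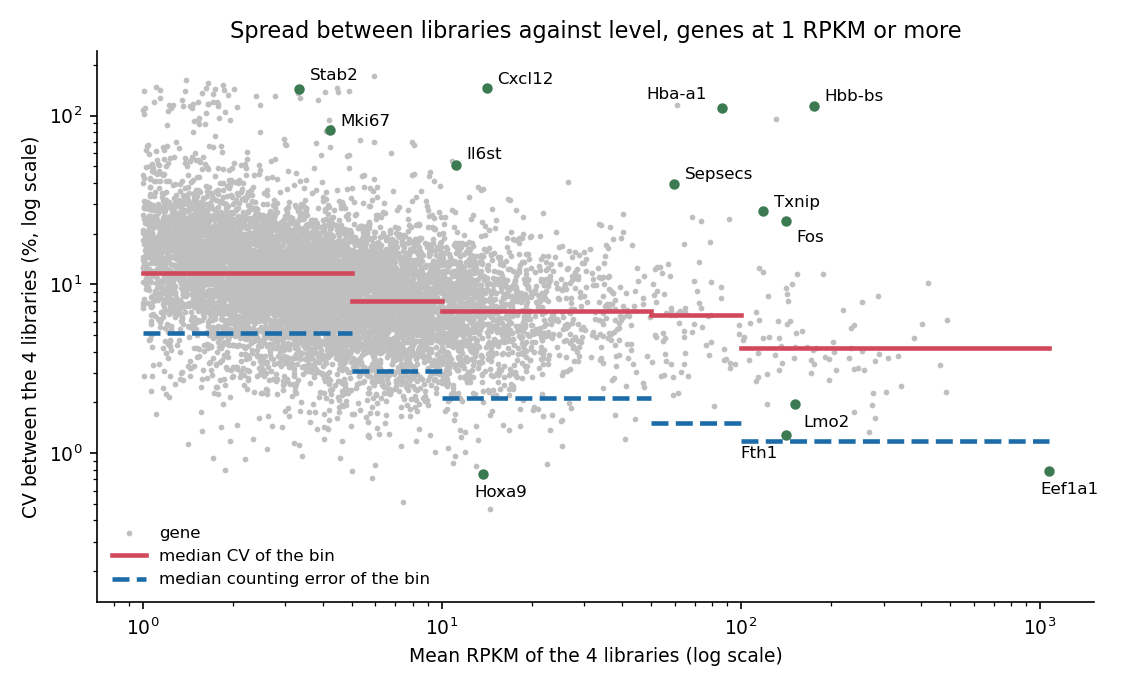
CV between the 4 libraries in percent against mean RPKM, both on log scales, for genes at 1 RPKM or more, with the median CV (solid) and the median counting error (dashed) of each level range. The median CV was 11.6% at 1 to 5 RPKM and 4.20% at 100 RPKM or more, while Cxcl12, Hbb-bs and Hba-a1 had CVs above 100%.

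The most even of the 154 protein-coding genes at 50 RPKM or more included genes of translation and 1 ferritin gene. Translation genes were common at this level, with 67 ribosomal protein genes and 9 listed translation factors at 50 RPKM or more. Eef1a1 had a CV of 0.783%, Fth1, the ferritin heavy chain, 1.29% at 142, 139.6, 144 and 140.3 RPKM, and Rps27 1.33%. Lmo2 was also among the 12 most even, with a CV of 1.95%, and Psme1, a proteasome activator subunit, had 2.198% at 57.5 to 60.5 RPKM. The most variable genes at this level, after the globins, were Sepsecs, which makes selenocysteinyl-tRNA, at 91.6, 54.8, 34.4 and 58.9 RPKM and Txnip, the thioredoxin inhibitor, at 122, 145, 72.3 and 135 RPKM. Both were lowest in library 3. Ifitm1, an interferon-induced membrane protein, had 58.99, 55.4, 93.7 and 67.3 RPKM and the tubulins Tuba1b and Tubb5 65.9, 65.98, 99.8 and 63.1 and 60.2, 59.5, 81.3 and 57.6 RPKM. These 3 were highest in library 3.

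In 15 of the 1439 genes at 10 RPKM or more (1.04%) the highest library was at least 2 times the lowest. They were the 4 globin genes, Cxcl12, Bgn, Igfbp4, Sepsecs, Il6st, Fosb, H2-Q9, Rgs2, Cd74, Nr4a1 and Txnip, of which Bgn, Igfbp4, Fosb, H2-Q9 and Rgs2 were named after their values were seen. Bgn (biglycan), a matrix proteoglycan, had 9.54, 18.8, 4.75 and 10.2 RPKM and Igfbp4, which binds insulin-like growth factors, 11.1, 19.2, 6.91 and 7.87 RPKM. Both were highest in library 2 and lowest in library 3, as was Cxcl12. Fosb and Rgs2, which respond early to stimuli, had 17.1, 7.66, 18.7 and 11.6 and 11.1, 8.59, 20.01 and 14.6 RPKM, highest in library 3 and lowest in library 2. H2-Q9, an MHC class I gene with near-identical neighbours and therefore uncertain, had 8.58, 12.9, 11.3 and 20.3 RPKM, highest in library 4.

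The globin genes had the widest range of all genes at 50 RPKM or more. Hbb-bs, an adult beta globin, had 6.38, 309.8, 0.581 and 383 RPKM in libraries 1 to 4. Hbb-bt, the other adult beta globin, had 13.4, 232, 34.2 and 246 RPKM. Hba-a1, an alpha globin, had 5.92, 169, 0 and 170.3 RPKM and its duplicate Hba-a2 0.654, 129.8, 0.315 and 114 RPKM. Libraries 2 and 4 were high in all 4 genes, and libraries 1 and 3 were low. Library 3 had no read of Hba-a1 and 11 reads of Hba-a2. Reads may have been split between these duplicates, so no fold is given for Hba-a1 alone. Together the 4 genes held 1.10% and 1.21% of the summed RPKM in libraries 2 and 4 and 0.0343% and 0.0437% in libraries 1 and 3. Without library 4 the mean of Hbb-bs was 106 RPKM instead of 175 RPKM, and without library 2 that of Hba-a2 was 38.5 RPKM instead of 61.3 RPKM.

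The RNA of the alpha genes is nearly the same, so reads of Hba-a1 and Hba-a2 may have been split between them, and the sum of both was 6.58, 299, 0.315 and 285 RPKM. The 100 bases before the start of each globin gene are shown because all 4 genes were higher in libraries 2 and 4 than in libraries 1 and 3. Between libraries 1 and 3 they differed in order. Hbb-bt was higher in library 3, and Hbb-bs, Hba-a1 and Hba-a2 were lower there. The windows were taken from RefSeq promoters of GRCm38.p6, and all 4 genes matched. They are written 5′ to 3′ on the strand of the gene, and capitals mark on either strand the letters CCAAT of the CCAAT box, the letters CACCC of the CACCC box and the letters ATATAA of a TATA box.
Hbb-bs chr7:103827929-103828028 (-): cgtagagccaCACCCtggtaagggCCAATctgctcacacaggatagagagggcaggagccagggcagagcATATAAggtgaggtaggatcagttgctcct
Hbb-bt chr7:103813924-103814023 (-): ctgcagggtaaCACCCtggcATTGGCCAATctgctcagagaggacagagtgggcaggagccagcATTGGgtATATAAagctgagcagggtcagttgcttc
Hba-a1 chr11:32283572-32283671 (+): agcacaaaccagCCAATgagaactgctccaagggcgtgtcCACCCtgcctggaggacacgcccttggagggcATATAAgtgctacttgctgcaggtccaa
Hba-a2 chr11:32296392-32296491 (+): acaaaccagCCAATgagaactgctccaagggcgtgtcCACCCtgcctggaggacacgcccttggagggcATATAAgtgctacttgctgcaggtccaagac
Each of the 4 windows held all 3 letter strings. Of 32851 RefSeq promoter windows of the same length, 18.9% held CCAAT, 27.2% CACCC and 3.74% ATATAA on either strand, and 66 (0.201%) held all 3. The first base of ATATAA lay 28 to 31 bases before the start of the gene. The windows of Hba-a1 and Hba-a2 were the same over all 97 bases compared when shifted by 3, and those of Hbb-bs and Hbb-bt shared 73 of 99 bases when shifted by 1. The strings were set for these 4 genes and the alpha windows are the same sequence, so the shares do not measure how rare the match is. A match of letters is a description and does not show that a factor binds there.

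Some other erythroid genes followed the globins at lower levels. Alas2, the erythroid enzyme of heme synthesis, had 1.25, 5.30, 1.03 and 4.28 RPKM. Slc4a1, the anion exchanger of red cells, was named after its values were seen and had 0.0202, 1.49, 0 and 3.06 RPKM. The 22 genes of the erythroid list include the globins and Car2. Of these 22, 10 were highest in library 2 and 11 in library 4, against 19.6% and 14.8% of all genes at 1 RPKM. The count is therefore not one of the other erythroid genes alone. Epor and Klf1 were low in all libraries, and Car2 was even. The summed level of the list was 119, 940.2, 126 and 1020.4 RPKM. Lmo2, lowest in library 2 and highest in library 4, did not divide the libraries this way. The part of other cells in these values was not tested.

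Stromal genes were highest in library 2. Of 22 stromal, osteoblast and adipocyte genes with reads, 21 were highest in library 2 and 21 were lowest in library 3, and the sum of the list was 28.4, 129.8, 7.89 and 35.6 RPKM, with a mean of 50.4 RPKM over all 4 and 23.96 RPKM without library 2. Over all genes at 1 RPKM, library 2 was the highest for 19.6% and library 3 the lowest for 15.2%. These shares leave out genes below 1 RPKM, to which 13 of the 24 listed genes belong. Cxcl12, the ligand of Cxcr4 made by marrow stroma, had 3.79, 44.7, 0.0248 and 8.20 RPKM, with 11 reads in library 3. Without library 2 its mean was 4.01 RPKM instead of 14.2 RPKM. Lepr, the leptin receptor that marks perivascular stroma, had 1.25, 9.95, 0.0394 and 1.98 RPKM, Lpl, the lipoprotein lipase, 2.55, 14.1, 0.120 and 1.03 RPKM and Spp1 (osteopontin) 0.730, 12.2, 0.0195 and 3.35 RPKM. Without library 2 the means of Lepr, Lpl and Spp1 were 1.09, 1.24 and 1.37 RPKM. Runx2, on the same list, was even at 5.85 to 6.98 RPKM. The defining bone gene Col1a1 was at 0.0136 to 0.582 RPKM, and Bglap and Plin1 had no read. What part stromal cells had in library 2 was not tested.

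The endothelial list summed to 141, 91.8, 103 and 114 RPKM in libraries 1 to 4, and 14 of its 20 genes were highest in library 1, against 21.02% of all genes at 1 RPKM. For description, the list was divided after the values were seen by whether a gene's highest library was at least 2 times its lowest, so the division itself fixes which genes are even. The 9 even genes (Eng, Tie1, Esam, Egfl7, Tek, Vwf, Emcn, Pecam1 and Robo4) summed to 107, 87.9, 101 and 101 RPKM. The other 11 summed to 33.6, 3.94, 2.15 and 12.8 RPKM. Among them Cdh5, the vascular cadherin, had 5.08, 0.234, 0.0560 and 1.12 RPKM and Kdr, the main VEGF receptor, 4.69, 0.360, 0.319 and 1.81 RPKM. Stab2, a scavenger receptor of sinusoids named after its values were seen, had 10.3, 0.0556, 0.0477 and 3.00 RPKM. Of 19 monocyte and macrophage genes with reads, 13 were highest in library 1. The mannose receptor Mrc1 had 6.55, 1.07, 0.0304 and 2.24 RPKM and the complement gene C1qa 0.963, 0.570, 0.0746 and 0.532 RPKM. Without library 1, the means of Cdh5, Kdr and Mrc1 were 0.471, 0.8286 and 1.12 RPKM, with 1.62, 1.79 and 2.47 RPKM over all 4. What part endothelial cells and macrophages had in library 1 was not tested.

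**Figure D4:**
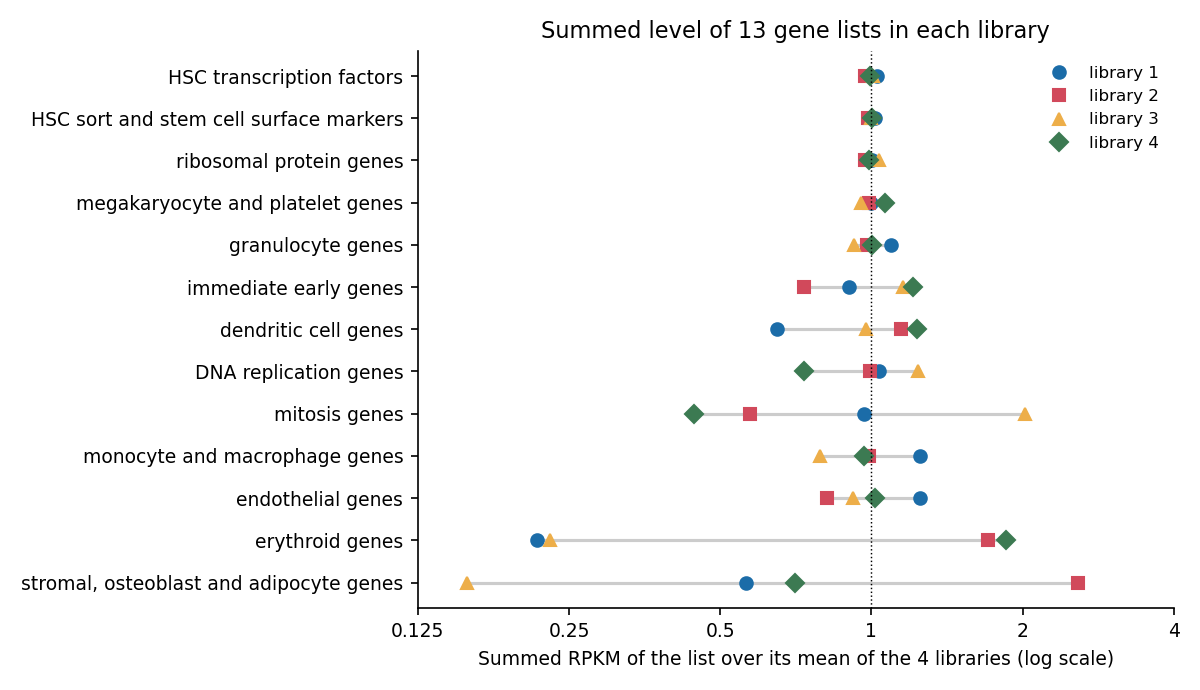
Summed RPKM of 13 gene lists in each library, divided by the mean of the 4 libraries, on a log scale. The stem cell lists and ribosomal protein genes stayed close to 1, whereas the erythroid list was high in libraries 2 and 4, the stromal list in library 2 and the mitosis list in library 3.

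Division genes were highest in library 3. All 29 mitosis genes and 29 of 33 replication genes had their highest level there, against 44.6% of all genes at 1 RPKM. The mitosis list summed to 37.2, 22.1, 77.7 and 17.1 RPKM, and its mean was 25.4 RPKM without library 3 and 38.5 RPKM with it. Mki67, the proliferation antigen, had 4.16, 1.55, 9.14 and 2.09 RPKM, Top2a, the topoisomerase of dividing cells, 5.03, 3.94, 12.04 and 2.82 RPKM and Prc1, of the mitotic spindle, 0.995, 1.11, 4.39 and 0.714 RPKM. Without library 3 their means were 2.597, 3.93 and 0.939 RPKM, with 4.23, 5.96 and 1.80 RPKM over all 4. Replication genes had higher levels and a smaller spread. Pcna, the sliding clamp, had 39.7, 34.7, 45.3 and 26.5 RPKM and Mcm6, of the replicative helicase, 18.4, 20.2, 22.5 and 13.8 RPKM, both lowest in library 4. In all, 12 of 29 mitosis genes (41.4%) and 29 of 33 replication genes (87.9%) had a mean of at least 1 RPKM. The first share was near the 44.4% of all protein-coding genes.

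**Figure D5:**
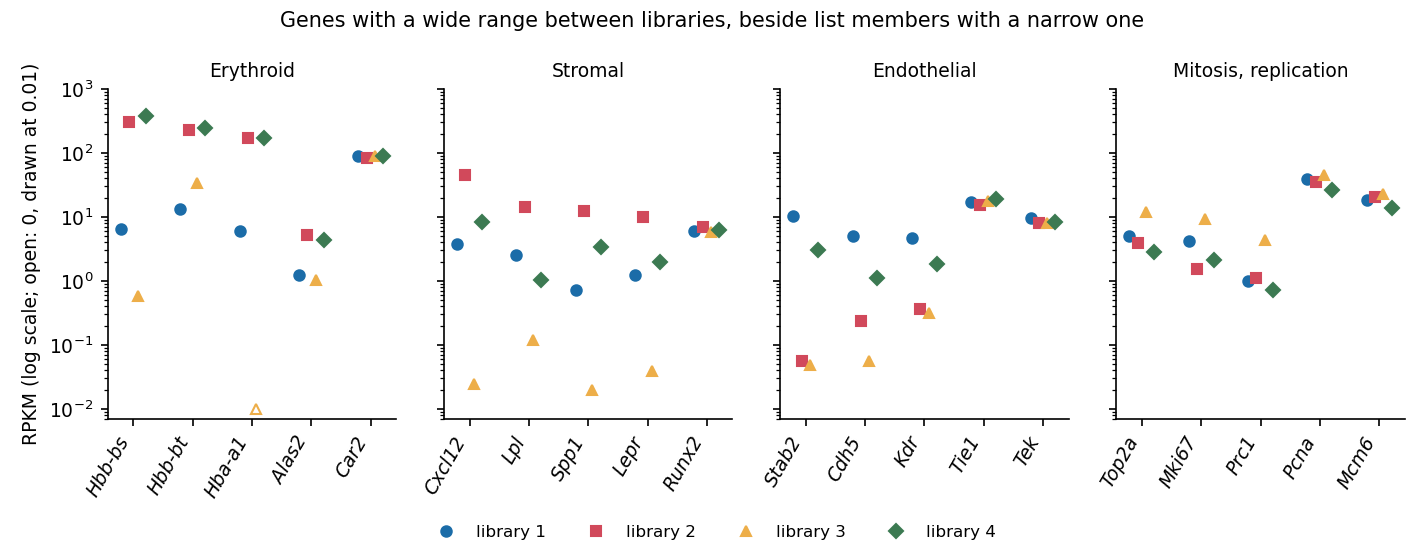
RPKM on a log scale of 5 genes from each of 4 kinds, with 1 symbol for each library and open symbols for 0 (drawn at 0.01). Globins stood high in libraries 2 and 4, Cxcl12, Lpl, Spp1 and Lepr in library 2, Stab2, Cdh5 and Kdr in library 1 and Top2a, Mki67 and Prc1 in library 3, beside even genes such as Car2, Runx2, Tie1 and Tek.

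Immediate early genes, whose transcription starts fast after a stimulus or cell handling, were high and uneven. Of 26 genes 21 reached 1 RPKM, and 18 were lowest in library 2, against 28.5% of all genes at 1 RPKM. The sum was 446, 362, 569 and 595 RPKM. Fos had 131, 101, 178 and 158 RPKM, rank 55 of all genes, and Egr1 77.3, 69.9, 98.03 and 119 RPKM. Zfp36, which destabilizes messages, had 34.2, 32.6, 46.9 and 48.2 RPKM, Dusp1, a phosphatase of MAP kinases, 37.5, 27.7, 41.7 and 43.1 RPKM and Nr4a1 the values given above. Jun followed another order at 24.8, 15.2, 14.9 and 19.99 RPKM, with its highest level in library 1. Library 2 had the fewest reads, and its part in this order was not tested.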

How the data were processed

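Per the labels' protocols, complementary DNA from 100 sorted cells was made into libraries by a Nextera XT kit, without marking of strand. Sequencing was done on a NextSeq instrument, per the series design text. The build was mm10, per the submitters' processing notes, and the program that aligned or counted reads was not given in the sources used here. Per the file headers, each deposited table gives total exon reads (whole-number counts, not normalized) and RPKM, which the authors scaled by exon length and a read total. No value was rescaled for the levels given.

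Copies of a gene on alternate scaffolds, 4565 copies of 1933 genes, were added up, which gave 46105 genes from 48737 features. They held 4.79% to 4.87% of the exon reads. Gene types came from a RefSeq table of GRCm38.p6. Of 16946 genes with a read, 16555 were protein-coding, and non-coding genes were not analysed here. Without strand, reads of a gene and its antisense partner cannot be told apart.

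The level is the mean RPKM of the 4 libraries, with thresholds of 1 and 10 RPKM, and the spread is the SD or CV. The part of a CV beyond counting error is the root of its square less the mean of 1 over the reads. With 1 group there was no test and no p-value. The CV step was tested on simulated data. The members and 56 gene lists were chosen with earlier results of these data known. The rule for named genes took the 20 highest genes with a symbol that is not predicted, the 6 highest and the defining members of each list, the 12 largest and 12 smallest CVs among protein-coding genes at 50 RPKM or more, and the member of each list at 10 RPKM or more with the largest CV. A few genes of this rule are not reported here. Of the list members 1 was not found. Of 1258 listed genes 814 had a mean of at least 1 RPKM. Shares of all genes by their highest or lowest library cover genes at 1 RPKM, whereas the list counts beside them include members below it. Alternatives were the scalings of edgeR 4.0.16 (TMM) and DESeq2 1.42.0 in R 4.3.3, TPM, features not added up, a filter of 10 reads, the median, protein-coding genes alone, a threshold of 5 RPKM and leaving out each library. Python 3.11.15 with pandas 2.3.3, numpy 2.4.6 and scipy 1.17.1 was used.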

Additional observations from a re-analysis of the deposited data

Results flagged for a closer look

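A library was checked for standing apart from the other 3 in 227 values (library measures, summed levels of lists, and named genes at 10 RPKM or more). The gap to the nearest library, as a share of the whole range, passed the critical value of Dixon for 4 libraries in 12 values, or 5.29%, and chance alone gives about 1 in 20. Library 3 was the high one for Tuba1b at 99.8 RPKM (others 63.1 to 65.98), Tubb5 at 81.3 RPKM (others 57.6 to 60.2), Rps18 at 269.98 RPKM (others 248 to 252), Gpi1, a glycolytic isomerase, at 25.9 RPKM (others 22.5 to 22.96), the initiation factor gene Eif3b at 14.8 RPKM (others 10.9 to 11.3) and the lipid peroxidase gene Gpx4 at 12.9 RPKM (others 9.31 to 9.77). Library 2, the one with the fewest reads, was the low one for Rpl5 at 296 RPKM (others 309 to 311) and Car2 at 83.1 RPKM (others 88.7 to 89.8), and the high one for Rnf2 at 10.7 RPKM (others 10.1). Library 4 was high for the sum of the HOX genes at 45.96 RPKM (others 40.2 to 41.1) and low for the aldolase gene Aldoa at 20.8 RPKM (others 23.5 to 23.9). Library 1 was low for Mycn at 21.3 RPKM (others 21.96 to 22.03). Pairs of high libraries, as for the globins, do not meet this rule. Library 3 was also the highest library for 44.6% of all genes at 1 RPKM and had the highest sum over all genes.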

How the results depend on the processing

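No paired analysis was possible because the report describes 1 group and its results come from no test. The number of genes at 1 RPKM was 3698 at a threshold of 5 RPKM and 9544 to 9603 when 1 library was left out, and 814 list members became 471 at 5 RPKM. The number of genes with a 2-fold range among those at 10 or more was 461 of 10099 (4.56%) as TPM and 94 of 6624 (1.42%) with the exon reads times the TMM factor as library size. By construction both scalings put more genes above 10, since a value of 1 RPKM becomes larger. Without 1 library the count was 11 to 15. The share of RPKM in the 100 highest genes was 24.3% to 24.6% without 1 library, the genes shared by the top 100 lists 89 to 92, and the median CV 5.35% to 7.21%, lowest without library 3. List members at 1 RPKM numbered 811 to 817. Leaving out the genes of the erythroid, stromal, endothelial, macrophage and mitosis lists, chosen after seeing the data, left 10 genes with a 2-fold range and a median CV of 6.78%. The mean levels of all 382 named genes moved by less than their SD with the DESeq2 size factors, and those of 374 moved by more as TPM or with the TMM factor, which change the unit. Leaving out 1 library changed the mean of Lpl by 3.61 times, of Cxcl12 by 3.54 times (both library 2) and of Cdh5 by 3.45 times (library 1). Levels under about 0.05 RPKM rest on a few reads. With 4 libraries an SD is itself imprecise.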

Other observations

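Families that the text above leaves out also differed in how even they were. Of 17 KLF genes 11 reached 1 RPKM. Klf6, an early response gene, had 13.4, 9.88, 16.2 and 19.6 RPKM and Klf2 4.04, 3.01, 7.19 and 5.07 RPKM, both lowest in library 2, whereas Klf10, induced by TGF-beta, had 4.68, 8.49, 4.46 and 5.69 RPKM and was highest there. Cebpz, which shares the symbol of the CEBP family, stood at 9.82 to 12.6 RPKM. Cebpb, a CEBP factor of myeloid cells under stress, stood at 1.34, 1.03, 2.21 and 1.78 RPKM. The histone deacetylases Hdac1 (13.4 ± 0.941 RPKM) and Hdac2 (12.8 ± 1.70 RPKM; SD, n = 4) overlapped.

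Among lysosomal proteases, Ctsd (cathepsin D) led with 32.7, 27.5, 28.8 and 25.3 RPKM and Ctsb had 15.8, 13.9, 11.1 and 13.4 RPKM. Ctsl had 8.39, 3.78, 3.00 and 4.43 RPKM, highest in library 1, where 13 of 19 macrophage genes were also highest, and their part in this value was not tested. The endoplasmic reticulum chaperones Hspa5 (BiP) and Dnajb9 had 53.6, 39.1, 43.9 and 36.96 and 24.4, 19.9, 21.2 and 30.9 RPKM, the first highest in library 1 and the second in library 4. Calr and Canx, which fold glycoproteins, were more even at 38.98 to 45.6 and 40.5 to 42.9 RPKM.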
